A study of Mus musculus with 8 samples.

Results

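Mitochondrial ribosomal protein genes were examined in mouse cerebellum across 4 groups of C57Bl/6 males at postnatal day 40. The groups were Snf2h cKO-Nestin runners, Snf2h cKO-Nestin sedentary mice, control runners and control sedentary mice, with 2 libraries each. Each library was a pool of 3 cerebella sequenced as polyA RNA. The members are the loci whose deposited symbol starts with Mrpl or Mrps followed by a digit, and 56 such loci stood among the 11763 genes listed in at least 1 of the 4 deposited pairwise tables. Snf2h, the product of Smarca5, is the motor subunit of ISWI chromatin remodellers. The conditional knockout (cKO) is named for Nestin, a gene of neural progenitors, so cells of other origin such as microglia may keep Snf2h. The genotype of the controls is given only as control, so whether they carry the driver or a floxed allele is not stated. The labels do not say how long or in what way the runners ran, and both libraries of each group carry titles that differ by a lane letter alone, so they may be pools or lanes of a pool.

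Mitochondrial ribosomes translate the few proteins that the mitochondrial genome encodes, all of them core parts of the respiratory chain and ATP synthase. Their RNA comes from mitochondrial DNA, but every protein of the particle is encoded in the nucleus, made in the cytosol and imported. Some of these proteins descend from bacterial ribosomal proteins and others are found only in mitochondria. Neurons of the cerebellum depend on respiration, and defects of single mitochondrial ribosomal proteins cause inherited disease of brain, heart or liver in humans.

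The deposited tables hold 1 FPKM value (fragments scaled by gene model size and sequencing yield) for each group. The spread between libraries is therefore not visible, and the calls rest on the error model inside the authors' test. A locus was called when its q-value in the authors' deposited table was below 0.05. The tables list almost only called genes, so a locus missing from a table was either not tested or not called. The GENCODE M21 annotation holds 78 protein-coding genes of this name pattern, and 22 of them appeared in no table. The large subunit had 32 of 51 genes listed and the small subunit 23 of 26, with Mrps36 counted in neither, since its product is now placed in the 2-oxoglutarate dehydrogenase complex. Of the 56 loci, 8 join a member with a neighbouring gene, and their values belong to both genes. Smarca5 stood at 5.38 FPKM in cKO runners, 4.94 in cKO sedentary mice, 13.0 in control runners and 12.6 in control sedentary mice, in the order that the genotype labels imply. All groups are described as male, yet genes of the Y chromosome were called lower in cKO runners than in cKO sedentary mice. The authors' deposited table gave log2 -1.15 for Ddx3y, -0.92 for Uty, -0.91 for Eif2s3y and -0.88 for Kdm5d. Whether the pools differ in sex was not tested.

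The control sedentary group stood apart from the other groups in ways that touch 2 of the comparisons. Choroid plexus genes, which mark the secretory tissue next to the cerebellum, summed over 8 loci to 1042 FPKM in cKO runners, 1070 in cKO sedentary mice, 878 in control runners and 225 in control sedentary mice. Of 13 choroid plexus loci, 12 were called higher and 1 lower in cKO sedentary mice and 10 higher in control runners, each over control sedentary mice, and none was listed at 0. Short transcripts were also relatively high in the control sedentary group. Among called genes with a longest transcript under 1000 bases, 78.7% were lower in cKO sedentary mice and 95.5% lower in control runners, each against control sedentary mice. From 6000 bases up the shares were 34.6% and 12.4%. For cKO runners over control runners the shares lower were 54.2% under 1000 bases and 55.8% from 6000 bases up, and for cKO runners over cKO sedentary mice 36.8% and 61.1%. The median longest transcript was 2091 bases for the members, a joined locus counted at its member's own length, and 3654.5 bases for all listed genes.

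**Figure D1:**
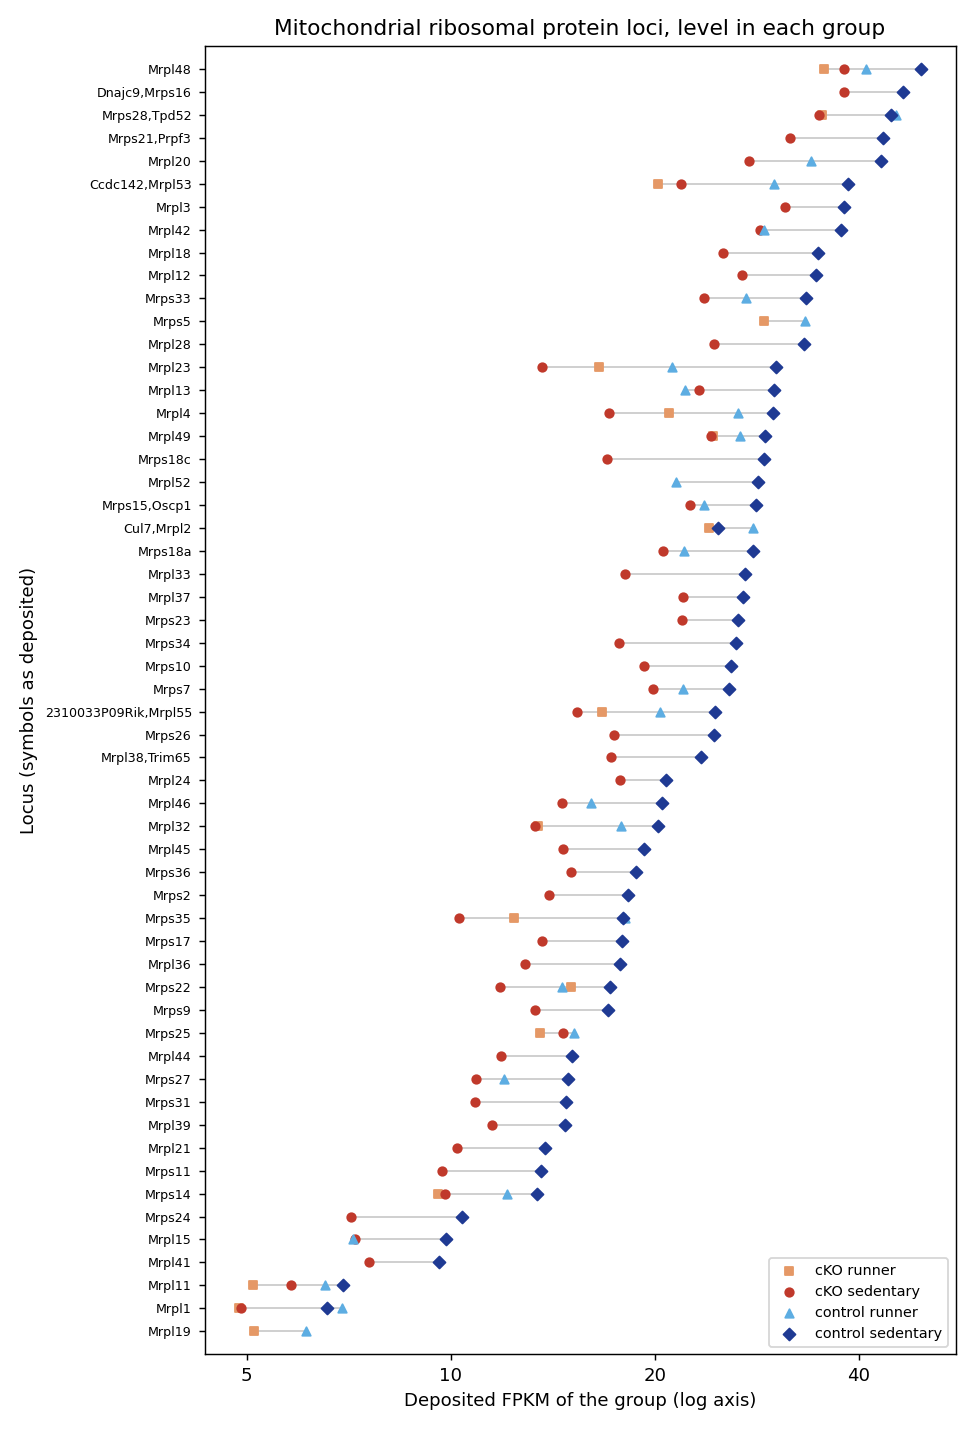
Deposited FPKM (log axis) of each of the 56 loci in cKO runners, cKO sedentary mice, control runners and control sedentary mice; a marker is the authors' 1 value for the group and a missing marker means that no table gave it. The control sedentary value lies to the right of the cKO sedentary value at all 51 loci that have both.

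Every mitochondrial ribosomal protein locus called in sedentary mice was lower in the cKO. The question is what the loss of Snf2h goes with in mice that did not run. Of the 56 loci, 49 were called lower and 0 higher in cKO sedentary mice, against 44.2% of all listed genes called lower and 38.4% called higher. The remaining loci were 2 that the table lists lower without a call (Mrpl11, q = 0.0583, and the locus joining Dnajc9 and Mrps16, q = 0.0536, in the authors' deposited table) and 5 that it does not list. The median log2 fold change of the called members in the authors' deposited table was -0.44, which puts the typical member at 73.7% of the control level, and the median of all genes that this table lists was -0.18. Summed over the 51 loci with both values, the level was 918 FPKM in cKO sedentary mice and 1262 FPKM in control sedentary mice. In bulk tissue, fewer cells of a type and less RNA per cell cannot be told apart.

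The decrease was moderate. Only 8 of the 49 called members changed by at least 1.5-fold, and 1 by at least 2-fold. Of all genes called lower, 37.0% changed by at least 1.5-fold, and of all called genes in either direction 46.5%. Members of both subunits fell: 28 large subunit members were lower with a median of -0.44 and 20 small subunit members were lower with a median of -0.45, in log2 values of the authors' deposited table. Members classed here as having a bacterial homolog (27 called) and those classed as found only in mitochondria (20 called) had medians of -0.44 each. No test of these medians against each other was made, since members are not replicates.

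The largest decrease was that of Mrpl23, whose bacterial homolog sits at the exit of the peptide tunnel. Mrpl23 (XLOC_020452; chromosome 7, 142532686 to 142540747, plus strand, mm10) had 13.6 FPKM in cKO sedentary mice and 30.2 FPKM in control sedentary mice, a log2 fold change of -1.15 at q = 0.000167 in the authors' deposited table. Mrps35, a small subunit protein without a bacterial homolog (XLOC_018753; chromosome 6, 147042764 to 147073991, plus strand), had 10.3 FPKM in cKO sedentary mice and 17.97 FPKM in control sedentary mice (log2 -0.80, q = 0.000167, in the authors' deposited table). Mrpl4, whose bacterial homolog lines the peptide tunnel (XLOC_023027; chromosome 9, 21002738 to 21008839, plus strand), had 17.1 FPKM in cKO sedentary mice and 29.9 FPKM in control sedentary mice (log2 -0.80, q = 0.000167, in the authors' deposited table). In each of these the control sedentary value was the higher, and Mrpl23 was the 1 member past 2-fold.

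Mrps18c is the member of the S18 family that is closest to the bacterial protein and sits in the small subunit, while Mrps18a belongs to the large subunit. Mrps18c (XLOC_016993; chromosome 5, 100798627 to 100804471, plus strand) had 17.0 FPKM in cKO sedentary mice and 29.0 FPKM in control sedentary mice (log2 -0.77, q = 0.00288, in the authors' deposited table). Mrps18a had 20.6 FPKM in cKO sedentary mice and 27.9 FPKM in control sedentary mice (log2 -0.44, q = 0.00132, in the authors' deposited table). Both paralogs fell, and the third, Mrps18b, was in no table. Among other large decreases, Mrpl20, a large subunit protein with a bacterial homolog, had 27.5 FPKM in cKO sedentary mice and 43.1 FPKM in control sedentary mice. Mrpl32, which in yeast is matured by the m-AAA protease inside mitochondria, had 13.3 FPKM in cKO sedentary mice and 20.2 FPKM in control sedentary mice. The authors' deposited table gave log2 -0.65 for Mrpl20 and -0.61 for Mrpl32, both at q = 0.000167.

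Well expressed members fell as well as weak ones. Mrpl48 had 38.0 FPKM in cKO sedentary mice and 49.5 FPKM in control sedentary mice, the highest control sedentary level among the members. Mrpl1, a protein of the flexible stalk over the exit site for tRNA, had 4.90 FPKM in cKO sedentary mice and 6.56 FPKM in control sedentary mice, the lowest called member on that scale. The authors' deposited table gave log2 -0.38 for Mrpl48 (q = 0.000167) and -0.42 for Mrpl1 (q = 0.00263). The smallest called change was that of Mrpl24, at log2 -0.22 and q = 0.0118 in the authors' deposited table. Mrps36, the member that is no longer counted as ribosomal, had log2 -0.32 at q = 0.0408 in the authors' deposited table. That call was lost at a q below 0.01 and at the q that all 4 tables share, and the length-centred value was above 0, at 0.197.

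Transcript length moved with this result. Of the 3335 called genes whose longest transcript lies between the members' quartiles (1094.25 to 3281.75 bases), 65.9% were lower in cKO sedentary mice, with a median log2 of -0.34 in the authors' deposited table. With fold changes centred on called genes of like length, 35 of the 49 called members stayed below 0, 13 were above and 1 was at 0, and their median became -0.16. Within the members, the fold change did not follow length (Pearson's r -0.013 and Spearman's rho 0.037 across 49 loci, which share the same 4 libraries). Granule neuron markers, 17 loci led by Neurod1 and Gabra6, moved in the same direction, with 16 lower and 1 higher and sums of 550 FPKM in cKO sedentary mice and 2170 FPKM in control sedentary mice, none listed at 0. Purkinje cell markers were called higher at 13 of 15 loci and lower at 0, oligodendrocyte markers higher at 12 and lower at 3 of 15, and microglial markers higher at 10 of 12 and lower at 0. The part of granule neuron content, of choroid plexus tissue and of transcript length in the members' values was not tested.

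**Figure D2:**
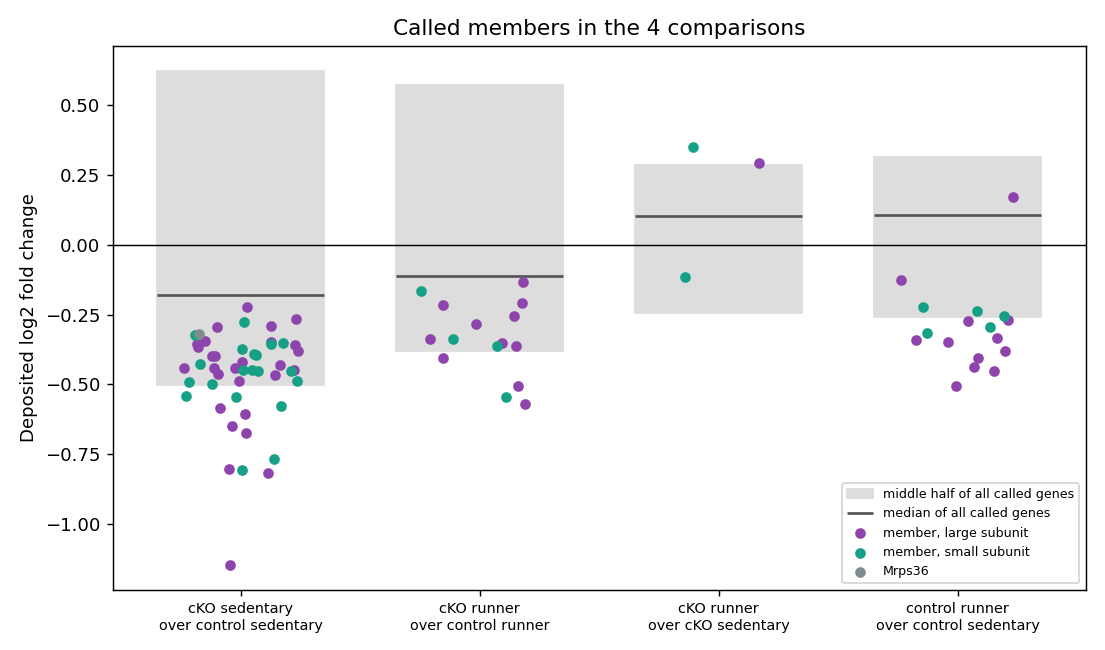
Deposited log2 fold changes (vertical axis) of the called members in the 4 comparisons, coloured by subunit; grey boxes span the interquartile range of all called genes and the dark line is their median. All 49 called members lie below 0 for cKO sedentary over control sedentary, and all 15 for cKO runner over control runner.

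In runners, the 15 members that were called were lower in the cKO, and 40 members were not in that table. The question is what the loss of Snf2h goes with in mice that ran. Of the 56 loci, 15 were called lower and 0 higher in cKO runners, against 36.2% of all listed genes called lower and 32.2% called higher. The share of members called lower, 26.8%, was thus below the share of all listed genes. The table listed 1 further member, Mrps5, as lower without a call (28.98 FPKM in cKO runners and 33.3 in control runners, q = 0.0515 in the authors' deposited table). The median log2 of the called members was -0.34 in the authors' deposited table, against -0.11 for all genes in this table, and none of them reached 1.5-fold. Of all genes called lower, 23.1% did, and of all called genes in either direction 36.5%.

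The largest decreases in runners were again found in both subunits. The locus joining Ccdc142 and Mrpl53 had 20.2 FPKM in cKO runners and 30.0 FPKM in control runners (log2 -0.57, q = 0.00105, in the authors' deposited table). Mrps35 had 12.4 FPKM in cKO runners and 18.1 FPKM in control runners (log2 -0.55, q = 0.00132, in the authors' deposited table). Mrpl1 had 4.87 FPKM in cKO runners and 6.92 FPKM in control runners (log2 -0.51, q = 0.000324, in the authors' deposited table). These loci and Mrpl32, Mrps14 and Mrpl4 were called lower in sedentary mice too.

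Smaller decreases completed the list. The authors' deposited table gave log2 -0.40 for Mrpl32 (13.5 FPKM in cKO runners, 17.8 in control runners), -0.36 for Mrpl23 (16.5 FPKM in cKO runners, 21.2 in control runners), -0.35 for Mrpl11 and -0.34 each for Mrps14 and Mrpl4. Mrpl11, whose bacterial homolog forms the base of the factor-binding stalk, had 5.11 FPKM in cKO runners and 6.51 FPKM in control runners. In all, 11 members were called lower in both genotype comparisons, which is 73.3% of the calls in runners and 22.4% of those in sedentary mice. Over all genes the corresponding shares were 82.5% and 68.3%. Mrpl11, Mrpl19, Mrps25 and the locus joining Cul7 and Mrpl2 were called in runners and not in sedentary mice, where Mrpl11 is the 1 of them that the table lists.

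The length trend was weak in runners. Called genes of the members' middle length range were 51.3% lower in cKO runners, and all 15 called members stayed below 0 after length centring, at a median of -0.24. Granule neuron markers were lower at 16 of 17 loci in cKO runners, with sums of 842 FPKM in cKO runners and 2237 FPKM in control runners. Purkinje cell markers were called higher at 12 and lower at 1 of 15 loci, and oligodendrocyte markers higher at 13 and lower at 2 of 15. Microglial markers were called higher at 9 and lower at 0 of 12, and choroid plexus markers higher at 7 and lower at 1 of 13. The part of these cell types in the members' values was not tested.

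**Figure D3:**
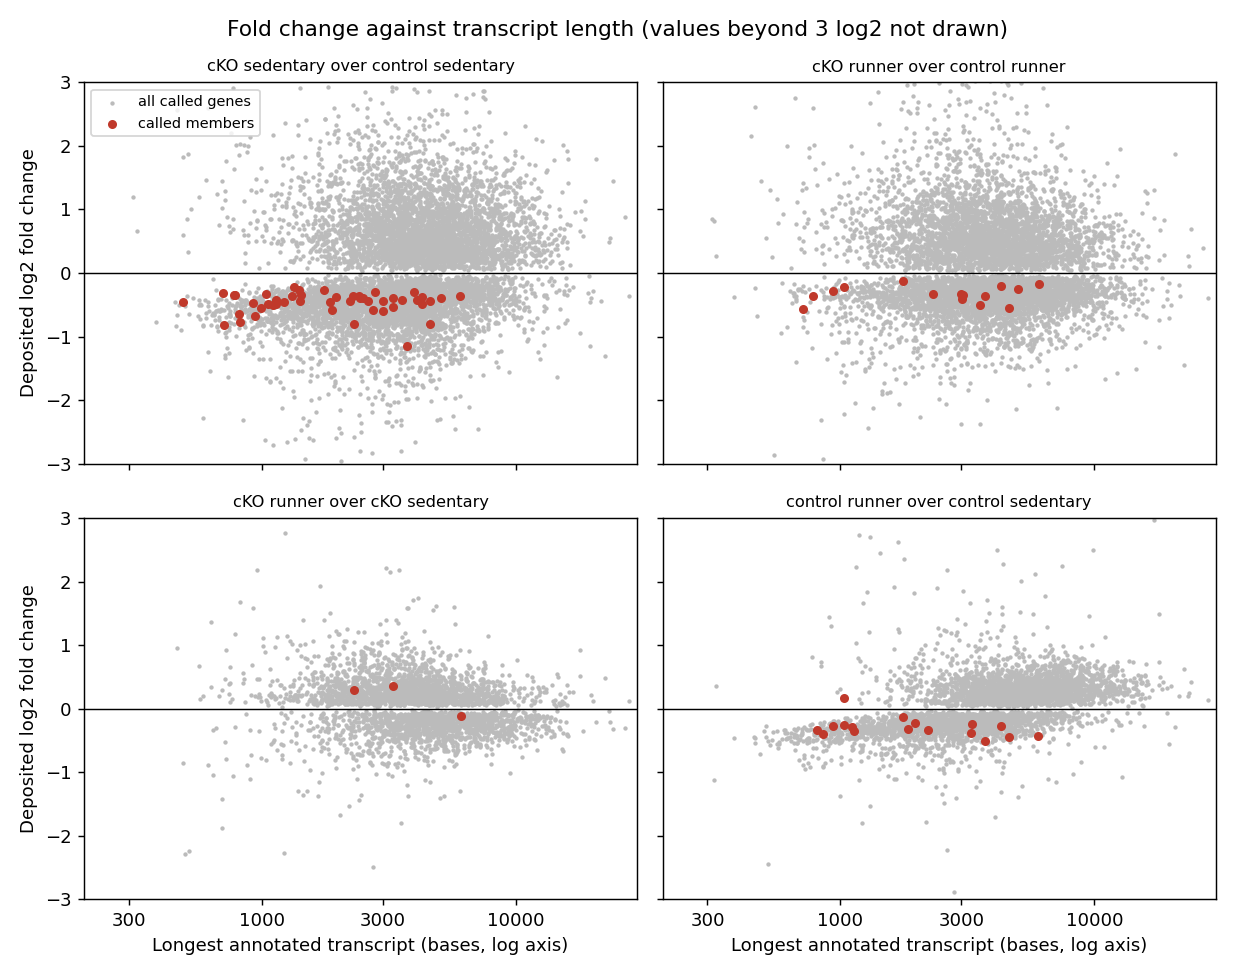
Deposited log2 fold change (vertical axis) against the longest annotated transcript in bases (log axis) for all called genes in grey and the called members, at their own transcript length, in red, 1 panel for each comparison; values beyond 3 are not drawn. The grey cloud slopes upward with length where control sedentary mice are the reference, and not for cKO runner over control runner. For cKO runner over cKO sedentary it slopes downward, with a median log2 of 0.19 under 1000 bases and -0.13 from 6000 bases up.

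At the members with a value in every group, the genotype difference was mostly smaller in runners, and part of this order turned with length centring. At 13 loci with a value in all 4 groups, the median log2 of cKO over control, taken from the FPKM values, was -0.35 in runners and -0.54 in sedentary mice, and the difference was smaller in runners at 10 of the 13. Most of the shift lay in the control groups, where the median log2 of runners over sedentary mice was -0.17, against 0.02 in the cKO, and control sedentary mice are the group that stood apart in transcript length and choroid plexus genes. At the 11 members called in both genotype tables, the deposited median was -0.36 in runners and -0.61 in sedentary mice, with runners nearer to 0 at 9. At the same 11, the length-centred median was -0.25 in runners and -0.34 in sedentary mice, and runners lay above sedentary mice at 7. Mrpl49 lay lower in runners but nearer to 0, at -0.066 against 0.087 in sedentary mice. Over all called members, which are not the same loci in both comparisons, the order of the length-centred medians turned. They were -0.24 for 15 members in runners and -0.16 for 49 in sedentary mice. Mrps14 had length-centred values of -0.22 in runners and -0.18 in sedentary mice. Both cKO groups lay below both control groups at 12 of the 13 loci with a value in all 4 groups, the exception being Mrps22. These loci are here because other tables listed them, so they do not stand for the members as a whole. A test of the change in genotype effect could be made at 12 members (two-sided z test per gene from the deposited statistics, Benjamini-Hochberg adjusted over 6751 genes at 0.05, chosen after the values were seen). It was passed by Mrpl23, whose log2 difference was smaller by 0.79 in runners (SE 0.30), and by 28.0% of all genes tested. For Mrpl4 the change was 0.47 (SE 0.22) and for the locus joining Mrpl55 and 2310033P09Rik 0.39 (SE 0.17), and neither passed. With the standard error taken from the deposited p, Mrpl23 no longer passed, and with length-centred fold changes it passed with a difference of 0.75. This test is a normal approximation that rests on the authors' error model, since no value for a library is at hand.

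**Figure D4:**
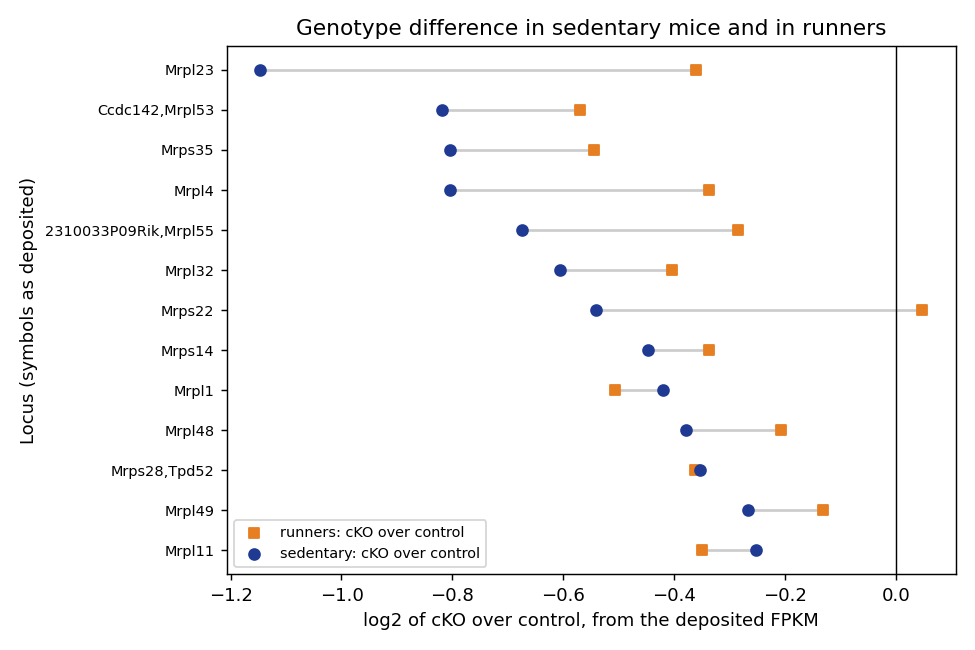
log2 of cKO over control, computed from the deposited FPKM (horizontal axis), for the 13 loci with a value in all 4 groups, in runners (orange squares) and in sedentary mice (blue circles). The orange square lies nearer to 0 at 10 loci, and Mrps22 is the 1 locus whose square is above 0.

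With running in the cKO, only 3 members were called. The question is what running goes with where Snf2h is lost. Of the 56 loci, 2 were called higher and 1 lower in cKO runners, against 17.7% of all listed genes called higher and 13.8% called lower. Mrps22 (XLOC_024119; chromosome 9, 98588730 to 98601660, minus strand), a small subunit protein without a bacterial homolog whose loss causes mitochondrial disease in humans, had 15.1 FPKM in cKO runners and 11.8 FPKM in cKO sedentary mice (log2 0.35, q = 0.000167, in the authors' deposited table). Mrpl4 had 20.998 FPKM in cKO runners and 17.1 FPKM in cKO sedentary mice (log2 0.29, q = 0.0219, in the authors' deposited table). Mrps25, another small subunit protein found only in mitochondria (XLOC_019118; chromosome 6, 92169525 to 92184033, minus strand), went the other way, with 13.5 FPKM in cKO runners and 14.7 FPKM in cKO sedentary mice (log2 -0.11, q = 0.00275, in the authors' deposited table). With length-centred fold changes the values became 0.21 for Mrps22, 0.0895 for Mrpl4 and -0.00648 for Mrps25, so the decrease of Mrps25 was near 0 among genes of like length.

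Another 11 members had a value in both cKO groups without being listed in this table. Their log2 of cKO runners over cKO sedentary mice, from the FPKM values, ran from -0.19 to 0.28 with a median of 0.01, and 5 were below 0. Mrpl23 had the highest of these values, at 16.5 FPKM in cKO runners and 13.6 FPKM in cKO sedentary mice, and was not called. All 17 granule neuron marker loci were called higher in cKO runners, with sums of 842 FPKM in cKO runners and 550 FPKM in cKO sedentary mice. Purkinje cell markers were called lower at 14 and higher at 0 of 15 loci, and oligodendrocyte markers lower at 7 and higher at 4 of 15. Their part in the members' values was not tested.

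With running in the control, most of the called members were lower. The question is what running goes with where Snf2h is present. Of the 56 loci, 16 were called lower and 1 higher in control runners, against 18.4% of all listed genes called lower and 22.1% called higher. The median log2 of the called members was -0.31 in the authors' deposited table, against 0.11 for all genes in the table, and none reached 1.5-fold. Mrpl23 again had the largest decrease, with 21.2 FPKM in control runners and 30.2 FPKM in control sedentary mice (log2 -0.51, q = 0.000622, in the authors' deposited table). Mrpl15, a large subunit protein with a bacterial homolog, had 7.19 FPKM in control runners and 9.84 FPKM in control sedentary mice (log2 -0.45, q = 0.000622, in the authors' deposited table). Mrpl13 had 22.2 FPKM in control runners and 30.0 FPKM in control sedentary mice (log2 -0.44, q = 0.00224, in the authors' deposited table).

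Members classed here as found only in mitochondria, 22 of the 56 loci, made up 9 of the 16 decreases. Mrpl52 had 21.5 FPKM in control runners and 28.4 FPKM in control sedentary mice. Mrpl42 had 29.0 FPKM in control runners and 37.6 FPKM in control sedentary mice. Mrpl46 had 16.1 FPKM in control runners and 20.5 FPKM in control sedentary mice. The authors' deposited table gave log2 -0.40 for Mrpl52 (q = 0.0286), -0.38 for Mrpl42 (q = 0.00338) and -0.35 for Mrpl46 (q = 0.00883). Mrps18a fell by 0.33 on the log2 scale (q = 0.0108) in the authors' deposited table. The 1 increase, log2 0.17 at q = 0.0085 in the authors' deposited table, was the locus that joins Mrpl2 to Cul7, a longer neighbouring gene.

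Length moved strongly with this comparison. Of 1429 called genes in the members' middle length range, 75.2% were lower in control runners. With length-centred fold changes, 12 of the 17 called members were below 0 and 5 above, and their median became -0.05. Mrpl23, Mrpl15 and Mrpl13 moved further below 0, to -0.61, -0.59 and -0.66. Mrpl52, Mrpl42 and Mrpl46 moved nearer to 0, to -0.0078, -0.30 and -0.027. Within the called members, fold changes tended to be lower at longer transcripts (Pearson's r -0.39 and Spearman's rho -0.34 across 17 loci, which share the same libraries). At the 23 loci with values in both sedentary groups and in control runners, the sums were 420 FPKM in cKO sedentary mice, 503 in control runners and 600 in control sedentary mice. Control runners were below control sedentary mice at 20 of the 23 loci, and cKO sedentary mice below control runners at 21. The comparisons of cKO sedentary mice and of control runners share the control sedentary group, so their decreases are not independent. Granule neuron markers were called higher at 10 and lower at 2 of 17 loci in control runners, while most called members were lower. The marker sums were 2237 FPKM there and 2170 FPKM in control sedentary mice. Purkinje cell markers were called higher at 5 and lower at 6 of 15 loci, and oligodendrocyte markers higher at 4 and lower at 8 of 15. Microglial markers were called lower at 3 and higher at 0 of 12. The part of these cell types in the members' values was not tested.

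Mrps22 was the 1 member that both running tables list, and it was called in opposite directions. It had 15.1 FPKM in cKO runners, 11.8 in cKO sedentary mice, 14.6 in control runners and 17.2 in control sedentary mice. The authors' deposited tables gave log2 0.35 for cKO runners over cKO sedentary mice and -0.24 for control runners over control sedentary mice (q = 0.0246). The response in the cKO exceeded that in the control by 0.59 log2 (SE 0.18), which passed the same z test, adjusted over 2078 genes. Of those genes, 1391 passed, so most genes that both tables list did so. Both running tables list only called genes, so a gene called in opposite directions was likely to pass before the test was made. The pass of Mrps22 therefore adds little to its calls. With length-centred fold changes the responses of Mrps22 were 0.21 in the cKO and -0.16 in the control, and their difference of 0.36 did not pass. In runners its levels in cKO and control were close, at 15.1 and 14.6 FPKM, and the table of runners did not list it.

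Other parts of mitochondrial translation were read from lists of named genes. At least 1 table listed 5 of 6 ribosomal proteins with other symbols, 9 of 27 assembly factors and 7 of 13 translation factors. For aminoacyl-tRNA synthetases this was 11 of 24, and for genes of mitochondrial DNA and its regulators 20 of 27. Counts below are among these listed genes. Of all listed genes, 44.2% were called lower and 38.4% higher in cKO sedentary mice, and 36.2% and 32.2% in cKO runners over control runners. Mitochondrial ribosomal proteins with other symbols followed the members. Of 5 listed, 5 fell in cKO sedentary mice and 2 in control runners, and none was called in the other comparisons. Dap3, the GTP-binding protein of the small subunit, had 11.7 FPKM in cKO sedentary mice and 13.5 FPKM in control sedentary mice (log2 -0.20, q = 0.000167, in the authors' deposited table). Chchd1 had log2 -0.46 (q = 0.000475) and Ptcd3, a pentatricopeptide repeat protein, log2 -0.27 (q = 0.00132) in the same comparison of the authors' deposited table.

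Assembly factors were lower in the sedentary cKO as well. Of 9 listed, 8 fell and 0 rose in cKO sedentary mice, and 3 fell in cKO runners over control runners. Rbfa, which binds the small subunit during its maturation, had 6.66 FPKM in cKO sedentary mice and 10.7 FPKM in control sedentary mice (log2 -0.68, q = 0.000167, in the authors' deposited table). Eral1, a chaperone of the small subunit's RNA, had 7.64 FPKM in cKO sedentary mice and 11.7 FPKM in control sedentary mice (log2 -0.61, q = 0.000167), and the authors' deposited table gave it log2 0.38 (q = 0.00447) for running in the cKO. Rpusd4, a pseudouridine synthase acting on the large subunit's RNA, had log2 -0.59 at q = 0.000167 in the authors' deposited table. With running, assembly factors rose in 2 cases in the cKO, and in the control 1 rose and 3 fell.

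Translation factors numbered 5 lower and 1 higher of 7 listed in each genotype comparison, 1 higher and 1 lower in cKO runners over cKO sedentary mice, and 0 called in control runners over control sedentary mice. Tufm, the elongation factor that brings aminoacyl-tRNA to the ribosome, had 29.5 FPKM in cKO sedentary mice and 42.5 FPKM in control sedentary mice (log2 -0.53, q = 0.000167, in the authors' deposited table). Mtif3, an initiation factor, had 2.47 FPKM in cKO sedentary mice and 4.07 FPKM in control sedentary mice (log2 -0.72, q = 0.000167, in the authors' deposited table). Letm1, an inner membrane protein placed on this list, was the 1 increase in runners, at log2 0.19 and q = 0.000167 in the authors' deposited table.

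Mitochondrial aminoacyl-tRNA synthetases showed no single direction, with 5 higher and 4 lower of 11 listed in cKO sedentary mice, 1 higher and 2 lower in cKO runners over control runners, 1 higher and 1 lower in cKO runners over cKO sedentary mice, and 2 higher and 1 lower in control runners over control sedentary mice. Fars2 and Hars2, which charge phenylalanine and histidine tRNA, had log2 -0.58 and -0.57 in cKO sedentary mice and Mars2, the methionine enzyme, had 0.47, in the authors' deposited table. Lars2, the leucine enzyme, had 26.0 FPKM in cKO runners, 29.1 in cKO sedentary mice, 40.4 in control runners and 27.9 in control sedentary mice, so it was high in control runners.

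Genes of mitochondrial DNA, its transcription and its regulators numbered 3 higher and 13 lower of 20 listed in cKO sedentary mice and 1 higher and 10 lower in cKO runners over control runners. With running they numbered 2 higher and 1 lower in the cKO and 5 higher and 2 lower in the control. Polrmt, the mitochondrial RNA polymerase, had 12.5 FPKM in cKO runners, 10.7 in cKO sedentary mice, 15.6 in control runners and 17.9 in control sedentary mice. The authors' deposited table gave Polrmt log2 -0.75 in sedentary mice and -0.31 in runners. Ppargc1a, a coactivator known for its part in mitochondrial biogenesis, went against the list, with 17.9 FPKM in cKO runners, 22.2 in cKO sedentary mice, 13.96 in control runners and 13.9 in control sedentary mice. It rose in the cKO in both genotype comparisons, with log2 0.68 in sedentary mice and 0.36 in runners in the authors' deposited table. Its relative Ppargc1b stood at 4.44 FPKM in cKO runners, 8.86 in control runners and 4.63 in control sedentary mice, so it was high in control runners. The authors' deposited tables gave it log2 -0.998 for cKO runners over control runners and 0.94 for control runners over control sedentary mice, each at q = 0.000167.

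Promoters of the members were read because the members moved together. RefSeq promoter windows on GRCm38.p6, from 250 bases before to 50 bases after the annotated start, were found for 48 of the 56 members, 1 window a gene. The members' windows had a median GC content of 59.0%, against 52.7% for 27025 genes. That larger set includes genes that no table lists. Whether other listed genes differ from it in the same way was not tested. The core of the NRF-1 motif (TGCGCA, the same on both strands) stood in 27.1% of member windows and 8.06% of all windows. The ETS motif that GABP binds (CCGGAAG or its complement CTTCCGG) stood in 31.2% and 9.12%, and the YY1 motif (AAGATGG or CCATCTT) in 22.9% and 6.48%. The E-box (CACGTG, the same on both strands) stood in 10.4% of member windows and 7.24% of all windows, and the TATA box (TATAAA or TTTATA) in 6.25% and 14.2%. NRF-1, GABP and YY1 are known as activators of nuclear genes for mitochondria. A match is a run of letters and not a shown binding site.

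The windows of 4 members are shown, those of the largest decrease (Mrpl23), of the S18 member that fell most (Mrps18c) and of the small subunit members that were called in opposite directions with running in the cKO (Mrps22 higher, Mrps25 lower before length centring). Capitals mark the motifs named above, read 5′ to 3′ on the strand of the gene. Mrpl23 lies at chr7:142532782-142533081 (plus strand), Mrps18c at chr5:100798509-100798808 (plus), Mrps22 at chr9:98601630-98601929 (minus) and Mrps25 at chr6:92183974-92184273 (minus).
Mrpl23: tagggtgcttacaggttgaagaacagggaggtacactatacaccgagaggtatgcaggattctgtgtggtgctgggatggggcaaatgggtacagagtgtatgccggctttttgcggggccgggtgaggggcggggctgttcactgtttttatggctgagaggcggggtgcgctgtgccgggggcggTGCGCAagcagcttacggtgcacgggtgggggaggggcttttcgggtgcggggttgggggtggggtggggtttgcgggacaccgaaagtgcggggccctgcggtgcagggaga
Mrps18c: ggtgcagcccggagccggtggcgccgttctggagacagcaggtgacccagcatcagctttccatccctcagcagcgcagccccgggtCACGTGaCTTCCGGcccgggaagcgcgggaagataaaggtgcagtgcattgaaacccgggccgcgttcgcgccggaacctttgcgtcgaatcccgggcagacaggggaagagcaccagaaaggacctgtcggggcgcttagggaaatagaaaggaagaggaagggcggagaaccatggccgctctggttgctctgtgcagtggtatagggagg
Mrps22: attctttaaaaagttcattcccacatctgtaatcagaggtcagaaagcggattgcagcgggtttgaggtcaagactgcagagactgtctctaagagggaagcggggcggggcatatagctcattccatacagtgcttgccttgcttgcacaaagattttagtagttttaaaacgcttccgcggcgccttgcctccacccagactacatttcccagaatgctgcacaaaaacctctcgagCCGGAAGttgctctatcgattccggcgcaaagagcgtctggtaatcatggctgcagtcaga
Mrps25: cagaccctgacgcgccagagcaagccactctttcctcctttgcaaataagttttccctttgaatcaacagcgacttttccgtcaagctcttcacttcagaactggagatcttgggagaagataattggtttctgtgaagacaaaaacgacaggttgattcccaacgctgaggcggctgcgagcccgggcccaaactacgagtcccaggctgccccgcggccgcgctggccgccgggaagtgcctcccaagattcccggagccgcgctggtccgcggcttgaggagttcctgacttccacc

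The Mrpl23 window held the NRF-1 core at base 188 of the window. By the GENCODE M21 coordinates, Mrpl23 starts at 142532686, before this RefSeq window, so the whole Mrpl23 window lies inside the gene there. The Mrps18c window held an E-box at base 88 and an ETS motif at base 95. The Mrps22 window held an ETS motif at base 240, and the Mrps25 window held none of the motifs, which says only that these letters are not in it.

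Members often lay head to head with another gene. A protein-coding gene on the opposite strand, with its start within 1000 bases of the member's, was found in GENCODE M21 for 18 of 56 members (32.1%). The share was 13.1% of 10946 listed protein-coding genes. Pairs that overlap at their starts were counted too. Mrpl46, of the large subunit, and Mrps11, of the small subunit, are such an overlapping pair on chromosome 7. Mrps11 starts at 78783119 on the plus strand and Mrpl46 at 78783531 on the minus strand, 412 bases apart, so each runs through the other's start. Mrpl46 had 14.6 FPKM in cKO sedentary mice and 20.5 FPKM in control sedentary mice, and Mrps11 had 9.71 FPKM in cKO sedentary mice and 13.6 FPKM in control sedentary mice. Both had log2 -0.49 in the authors' deposited table.

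Partners on a separate locus were called in cKO sedentary mice in 9 cases, the facing pair of members counted once for each, and 8 were lower and 1 higher. Mrpl46 and Mrps11 are among the 8, and both are members themselves. Of all listed genes, 44.2% were called lower and 38.4% higher in this comparison. Of called genes in the members' middle length range, 65.9% were lower. Helq, a DNA helicase gene whose start lies 29 bases from that of Mrps18c, had log2 -0.88 beside -0.77 for Mrps18c in the authors' deposited table. Fau, a cytosolic ribosomal protein gene that faces Mrpl49, had log2 -0.77 beside -0.27 for Mrpl49 in the authors' deposited table. Wdfy1, which faces Mrpl44, was the 1 partner that rose, at log2 0.37 beside -0.35 for Mrpl44 in the authors' deposited table. Reads of facing genes that overlap, as Mrpl46 and Mrps11 do, can be assigned to either where the counting does not use the strand. Whether it does is not stated here.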

How the data were processed

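Polyadenylated RNA of 8 cerebellar libraries was sequenced by the authors as paired reads of 2 x 100 bases, per the labels' protocols. The build mm10, Cuffdiff, Cufflinks 2.1.1, TopHat and TopHat2 2.0.8b are named, with no role, in the submitters' processing notes. Each of the 4 deposited tables compares a pair of groups in columns of the kind Cuffdiff writes and gives 1 FPKM value a group, per the file headers. How the 2 libraries of a group were combined is not stated. All 13151 FPKM values that occur in more than 1 table were compared, and 0 differed. The deposited log2 fold change is that of the second named group over the first, and its sign was set so that cKO stands over control and runner over sedentary. The test statistic the authors deposited is used as a score, and the p-value and q-value are the authors', per the file headers. No read depth is stated, so it is unknown here and no counting interval could be given.

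Members, gene lists, subunit classes and tests were chosen with earlier results of these data known. Genes were named by rule: up to 6 largest increases and decreases among called members of a comparison, without joined loci; members called in opposite directions in a pair of tables on the same question; the S18 family; Mrps36; and up to 3 genes of each other list by smallest q. Other members and joined loci named here were chosen after their values were seen. The standard error of a z test was the fold change over the deposited statistic. Transcript length and coordinates are from GENCODE M21 (GRCm38, the assembly of mm10), and length centring used 20 bins of called genes, a joined locus taking its longest transcript. Pseudogenes of Mrpl23, Mrpl48 and Mrps36 are annotated, and the handling of reads shared with them is not stated. Python 3.11.15, pandas 2.3.3, numpy 2.4.6 and scipy 1.17.1 were used, and the z test and the length centring were tested on simulated data. Other settings tried were a q below 0.01, the q common to all tables (0.0264), leaving out joined loci, a minimum of 1 FPKM, and centring on length or on the median.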

Additional observations from a re-analysis of the deposited data

Results flagged for a closer look

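The running response of Mrps22 differed between the genotypes, by 0.59 log2 (cKO minus control, SE 0.18). It passed the z test adjusted over all genes in both running tables, also with the standard error from the deposited p. Both of these list only called genes and Mrps22 was called in opposite directions, so a pass was likely in advance. With length-centred fold changes the difference was 0.36 and did not pass. The genotype difference of Mrpl23 differed between runners and sedentary mice, by 0.79 log2 (runner minus sedentary; SE 0.30), which passed that test and missed its threshold when the standard error was taken from the deposited p.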

How the results depend on the processing

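Of the settings tried, length centring was the 1 that turned the direction of called members. At q below 0.01, 9 members were lower in cKO runners over control runners, 8 were lower in control runners over control sedentary mice and 1 was higher in cKO runners over cKO sedentary mice. Without joined loci, 0 members were higher in control runners. With length-centred fold changes, 13 members were higher in cKO sedentary mice and 5 in control runners, among them Mrps36 (0.197) and Mrpl46 (0.0277) in cKO sedentary mice and Mrpl20 (0.0553) in control runners (the cause was not tested). Under the same centring, added after the values were seen, the difference in running response of Mrps22 was 0.361 and no longer passed. The change in genotype difference (runner minus sedentary) turned sign for the Mrpl53 locus (-0.155), the Mrps28 locus (0.38), Mrps14 (-0.0429) and Mrpl49 (-0.153), none of which passed before or after it. Centring on the median of the listed genes, which lay at -0.18, -0.11, 0.10 and 0.11 (cKO over control in sedentary mice and in runners, then runner over sedentary in the cKO and in the control), reversed no member. Libraries could not be left out in turn, since the tables hold 1 value a group. No paired analysis was possible because the tables give no value for a library.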
